A study of Arabidopsis thaliana with 54 samples.

Results

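Basic helix-loop-helix (bHLH) genes encode transcription factors, and they were chosen here by name. Every row of the deposited expression table whose gene name begins with BHLH, PIF, PRE or BEE and goes on with a number was taken, which gave 75 genes of 23997. Of these, 48 reached a mean of at least 1 FPKM (fragments per kilobase of gene, scaled to the mapped reads of the library, so a level corrected for gene length and depth) in at least 1 group and were tested, among 10622 genes that passed the same limit. The other 27 were not tested, and 5 of them (BHLH55, BHLH63, BHLH75, BHLH138 and BHLH168) were listed at 0 in all 54 libraries. Just inside the limit were PRE5, with a highest group mean of 1.17 FPKM, and BHLH103, with 1.24 FPKM. Just outside it were BHLH157 at 0.807 FPKM and BHLH167 at 0.782 FPKM. The limit was reached in all 18 groups by 22 genes and in 1 group only by BHLH119, BHLH85, PRE1 and PRE5. Members that carry another name in the table, such as the iron regulator FIT, are not among the 75. The PIF family is present under its PIF names through PIF6 alone, which was not tested, and as BHLH72, the systematic name of PIF7. No BEE gene was found by the rule.

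RNA was sequenced from whole Arabidopsis thaliana seedlings kept for 5, 30 or 180 min with 1 of 5 compounds or with none, in 3 libraries per group. The compounds were GV (guvermectin, a purine nucleoside made by Streptomyces) at 10 µM, and 4 plant hormones at 1 µM each: IAA (the auxin indole-3-acetic acid), ZT (the cytokinin zeatin), eBL (a brassinosteroid, epibrassinolide) and GA3 (a gibberellin). The control of each time received none of them. No accession or mutant allele is given in the labels used here. GV columns were recognised by elimination, since their name in the table is the single one that matches no other group. GV was given at another dose than the hormones, so its values are set beside theirs without a test between them. Whether the 3 libraries of a group stem from separate cultures is not stated, so a p-value here weighs a change against library spread that could be technical in origin.

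bHLH proteins bind DNA as pairs through a basic region, mostly at E-box sequences, and pair through a helix-loop-helix. Members that lack a working basic region, such as the small PRE proteins, bind partners without binding DNA and so take inhibitors out of action or make active members inactive. In plants the family is known for shade and light growth (PIF), brassinosteroid and auxin driven elongation (PRE and BEE), iron uptake, root hairs, vascular patterning, stomata and jasmonate responses.

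The size of 1 read implied 17.8 to 23.8 M reads per library, and 1 read in a gene of 1 kb was worth 0.0421 to 0.0562 FPKM. The table held no gene with a mean between 10.5 and 344 FPKM over the libraries, so bHLH genes of those levels were not analysed here. BHLH144 had the highest mean of the members, 9.92 FPKM. All 5 root and 4 green tissue marker genes were detected in every group, and so were all 3 seed markers except 1 that was at 0 with ZT at 180 min. In bulk tissue, fewer cells of a type and less RNA per cell cannot be told apart. Replicates within a group correlated at 0.971 or more (Pearson, log scale over genes) except in eBL at 30 min, where replicate 3 lay apart and the lowest value was 0.867. At 30 min, the means of the ZT, eBL and GA3 groups correlated with those of control, GV and IAA at 0.916 to 0.957 and with each other at 0.921 to 0.961, while control, GV and IAA correlated among themselves at 0.970 to 0.982. At 180 min these ranges were 0.903 to 0.945, 0.930 to 0.962 and 0.949 to 0.976. ZT, eBL and GA3 thus lay farther from the control than GV and IAA did, and at 30 min they lay nearly as far from each other. Each of the 3 at these times was therefore also set against the mean of the other 2, a comparison added after the data had been seen. IAA at these times is set against the other 3 hormones across that distance, which cannot be told apart from an effect of the compound. Of 134 changes of members with ZT, eBL and GA3 at 30 and 180 min that passed against the control, 61 passed against the other 2 in the same direction. In the opposite direction 4 passed. The same was not counted over all genes.

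A change is given as the difference in mean log2(FPKM + 1) ± its standard error (3 libraries a group). This scale understates the changes of low genes. A gene rose or fell where limma's moderated test, fitted to all 54 libraries, gave a Benjamini-Hochberg adjusted p under 0.05 over the 10622 genes. All 5 compounds share the control libraries of their time, so a control value that is high or low enters all 5 comparisons. Most members described for a comparison were picked there by the size of the change among those whose groups do not overlap, so that groups lie apart is a description of these members and no support.

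Of the 48 genes, 47 rose or fell in at least 1 of the 15 comparisons with the control, and BHLH103 was the exception. Of all genes tested, 88.1% did so. Both directions occurred for 24 genes, 12 only rose and 11 only fell. Of 720 pairs of gene and comparison, 215 passed the test, against 24.3% of the pairs over all genes. Of these 215, 42 had a log2 change of at least 1 in size. The split by direction and the number of large changes were not counted over all genes, so they are no trait of the family. BHLH87 passed in the largest number of comparisons, 9.

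**Figure D1:**
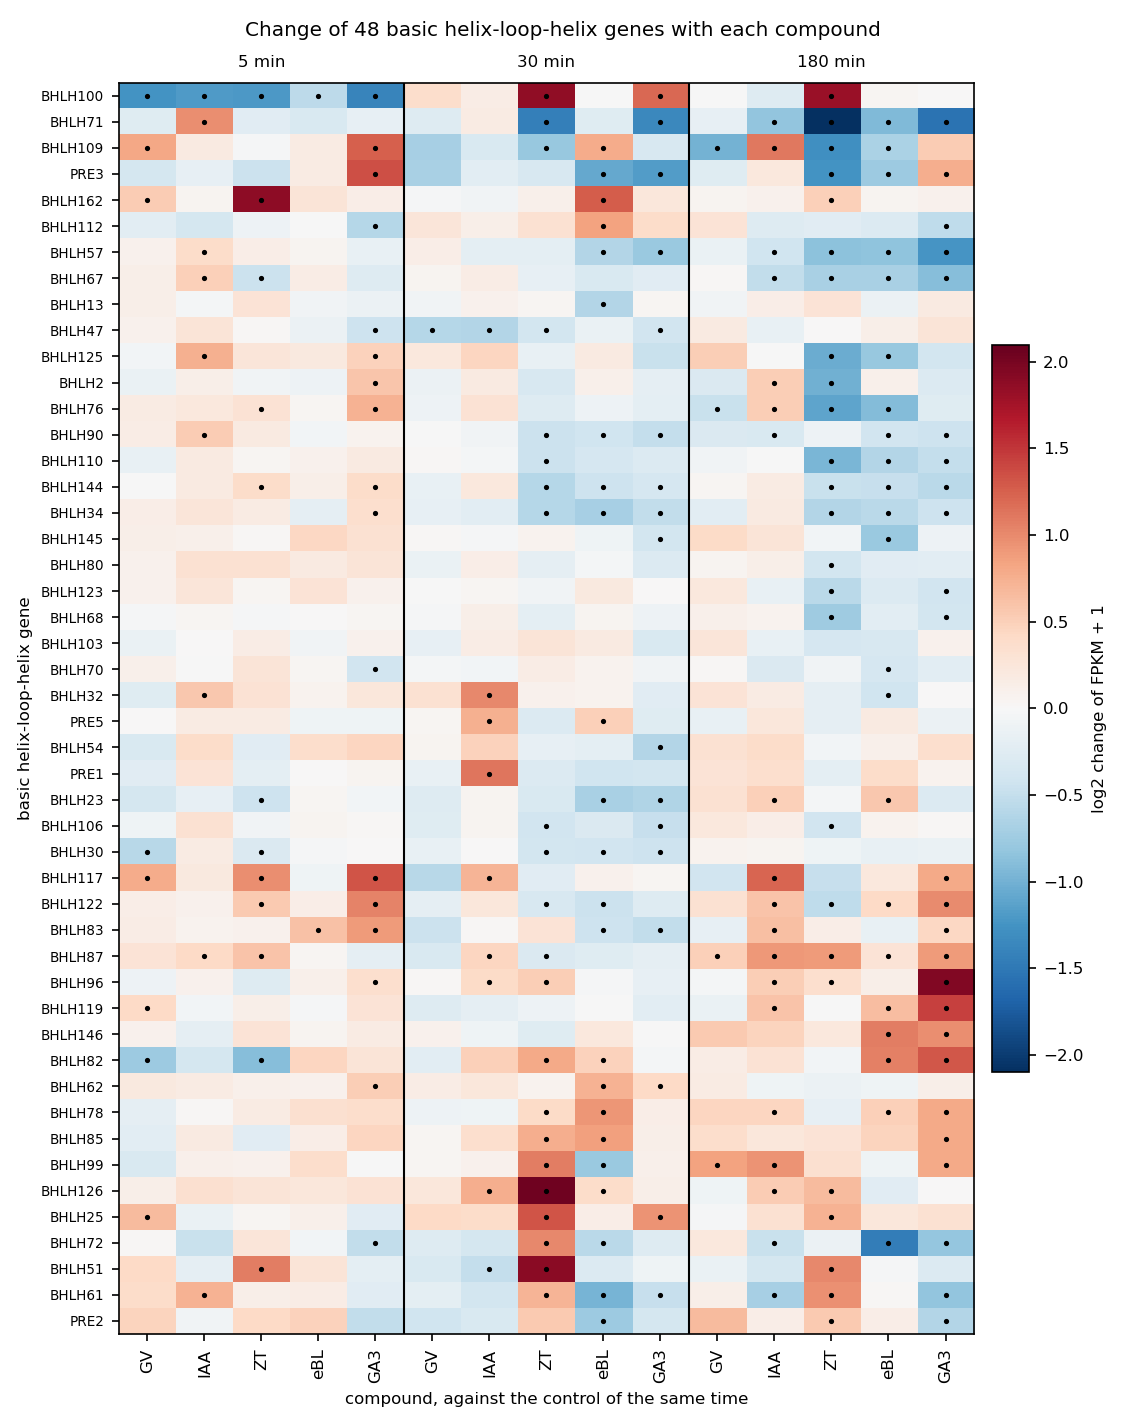
Log2 change of FPKM + 1 against the control of the same time (colour) for 48 bHLH genes (down the page, ordered by likeness of their changes) with 5 compounds at 5, 30 and 180 min (across). Dots mark the 215 changes that passed the test, from -2.09 for BHLH71 with ZT at 180 min to 2.05 for BHLH126 with ZT at 30 min.

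With GV at 5 min, 5 members rose and 3 fell, against 7.82% of all genes tested that rose and 3.16% that fell. At 30 min no member rose (0, against 1.51% of all genes) and 1 fell, BHLH47 (3.48% of all genes). The unadjusted limma p was under 0.05 for 10 members at that time. At 180 min 2 rose (5.59% of all genes) and 2 fell (3.58%). These counts depended on the settings. Without replicate 3 of eBL at 30 min, which adds to the shared estimate of spread, the later counts were 3 at 30 min and 9 at 180 min. A pseudocount of 0.1 FPKM gave 4 at 30 min, and a fit of GV and control alone gave 7 at 180 min. Without a filter on low values the counts were 5 at 5 min and 0 at 30 min.

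IAA raised more members than it lowered. Counts were 8 up and 1 down at 5 min (6.86% and 5.29% of all genes), 7 up and 2 down at 30 min (7.16% and 2.66%), and 13 up and 6 down at 180 min (11.2% and 6.48%). The 30 min count was 5 instead of 9 when IAA replicate 1 was left out. It includes PRE1 and PRE5, which were tested at all because of their level in that group. Likewise, the counts given next include BHLH119 with GA3 at 180 min and BHLH85 with eBL at 30 min. BHLH25, BHLH117, BHLH126, BHLH146 and BHLH162 reached the limit only in groups where they were high, and they enter the counts of those groups. For BHLH146 these were GA3 and eBL at 180 min, at means of 1.56 and 1.79 FPKM. Median log2 changes over the 48 members were 0.17, 0.10 and 0.17 at the 3 times, beside 0.03, 0.03 and 0.05 over all genes.

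With ZT, 7 members rose and 5 fell at 5 min (19.5% and 8.02% of all genes), 11 rose and 11 fell at 30 min (19.1% and 19.5%), and 9 rose and 16 fell at 180 min (17.1% and 24.7%). With eBL, 1 member rose and 1 fell at 5 min (2.27% and 1.07%), 9 rose and 14 fell at 30 min (23.1% and 20.6%), and 7 rose and 15 fell at 180 min (16.2% and 21.8%). With GA3, 12 members rose and 5 fell at 5 min (23.7% and 11%), 3 rose and 14 fell at 30 min (14.4% and 16.8%), and 12 rose and 13 fell at 180 min (17.3% and 23.6%). The share of members lowered by GA3 at 30 min, 14 of 48, was above that of all genes, and the share raised, 3 of 48, was below it. No test was made of these shares. Without a filter on low values 2 members rose and 8 fell there. Leaving out GA3 replicate 1 at 5 min gave 8 up and 3 down. For eBL at 30 min, which contains the replicate that lay apart, a fit of the eBL and control groups alone called 3 members instead of 23.

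Each hormone was also set against the mean of the other 3 at the same time. At 5 min, 18 members differed with IAA, 18 with ZT, 10 with eBL and 25 with GA3, against 24.8%, 26.6%, 18.2% and 36.9% of all genes. At 30 min the counts were 30, 25, 26 and 19 (39.7%, 34.7%, 41.6% and 20.4% of all genes), and at 180 min 28, 31, 19 and 17 (46.5%, 42%, 25.9% and 29.2%).

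The split of early calls depended on the scaling. Under quantile normalization the median change of all genes shifted by -0.14 with GA3 at 5 min and by -0.13 with ZT at 5 min, and less than 0.1 in size elsewhere. Members then counted 7 up and 12 down with GA3, 5 up and 8 down with ZT, 3 up and 4 down with GV and 8 up and 3 down with IAA at 5 min. The split was 2 up and 1 down with GV at 30 min and 11 up and 9 down with IAA at 180 min.

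**Figure D2:**
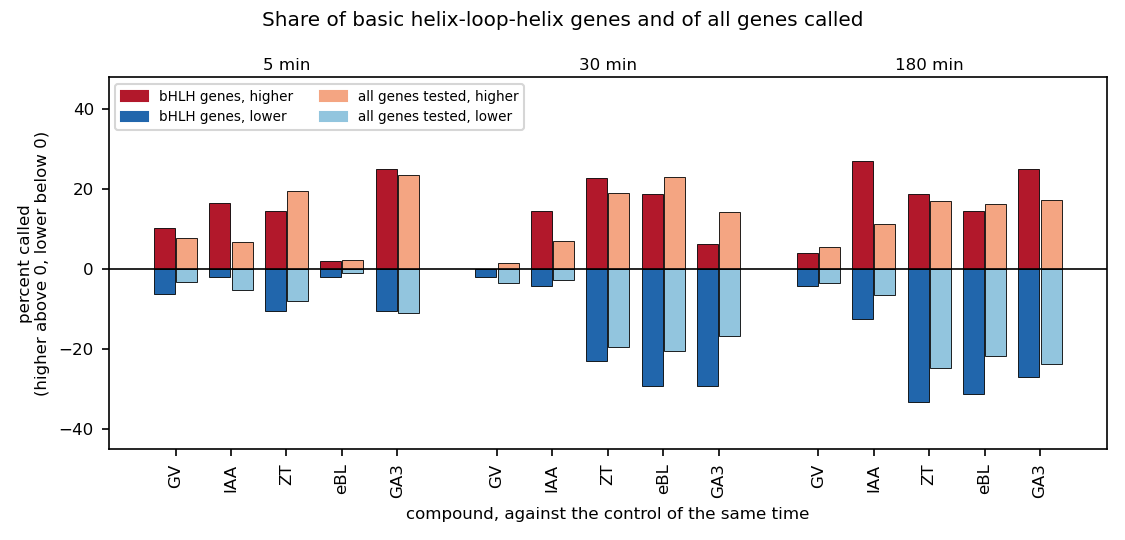
Percent of the 48 bHLH genes (dark bars) and of all 10622 genes tested (light bars) that rose (above 0) or fell (below 0) against the control of the same time with each compound. GA3 at 30 min lowered 14 members and raised 3.

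The PRE genes encode small helix-loop-helix proteins without a basic region that promote cell elongation by binding inhibitors of growth-promoting bHLH factors. The longest coding sequences of PRE1 to PRE5 in the RefSeq annotation of TAIR10.1 give proteins of 92, 94, 93, 92 and 92 residues. PRE4 was not tested, since its highest group mean was 0.408 FPKM, with eBL at 30 min.

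PRE1 and PRE5 were highest with auxin at 30 min. PRE1 (AT5G39860, chr5:15957368-15958559, plus strand) had 3.04, 2.55 and 2.56 FPKM with IAA at 30 min, against 0.291, 0.692 and 1.28 FPKM in the control. All IAA values lay above all control values. The difference in mean log2 value was 1.12. IAA at 30 min is the group through which PRE1 reached the limit of 1 FPKM, so this difference is a description with no test. No other of the 15 comparisons with the control passed for PRE1, and its other group means lay between 0.299 and 0.990 FPKM.

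PRE5 (AT3G28857, chr3:10855623-10856787, minus strand) had 1.27, 1.28 and 0.939 FPKM with IAA at 30 min, against 0.383, 0.177 and 0.300 FPKM in the control. The groups did not overlap, and the values rest on at most 23 reads in a library. The difference in mean log2 value was 0.75, again given with no test, since PRE5 too reached the limit only in this group. With eBL at 30 min PRE5 had 0.498, 0.849 and 1.14 FPKM, all above the control, and rose by 0.50 ± 0.13 (limma, adjusted p = 0.00174). Without replicate 3 of eBL that change was 0.37 (limma, adjusted p = 0.0276). In a fit of the compared groups alone the rise with eBL did not pass (limma, adjusted p = 0.143).

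The 250 bases before the annotated start of PRE1 and PRE5 are shown because these genes were highest with auxin and the core of the auxin response element can be read in them. Sequences are from TAIR10.1, 5′ to 3′ on the gene's strand, with each TGTC or its reverse complement GACA in capitals. The windows are chr5:15957118-15957367 on the plus strand and chr3:10856788-10857037 on the minus strand.
PRE1: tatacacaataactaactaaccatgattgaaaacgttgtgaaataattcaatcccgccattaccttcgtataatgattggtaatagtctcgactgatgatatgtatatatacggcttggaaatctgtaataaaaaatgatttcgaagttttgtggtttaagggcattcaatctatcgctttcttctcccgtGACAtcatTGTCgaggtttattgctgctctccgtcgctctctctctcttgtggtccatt
PRE5: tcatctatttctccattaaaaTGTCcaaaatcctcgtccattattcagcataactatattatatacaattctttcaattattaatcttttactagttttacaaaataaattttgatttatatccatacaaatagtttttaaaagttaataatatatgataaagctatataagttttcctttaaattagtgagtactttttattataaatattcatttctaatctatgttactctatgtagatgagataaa

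PRE1 held 2 matches in opposite orientation close to each other, and PRE5 held 1. Of 27443 promoters of that length, 42.4% held 2 or more matches and 74.8% held at least 1. The longer TGTCTC element, found in 10.9% of promoters, was in neither window as printed. A match of letters is a description and not a binding site.

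PRE3 (AT1G74500, chr1:27997919-27998821, minus strand) changed direction with GA3 over time. At 5 min it had 6.03, 7.95 and 6.70 FPKM with GA3, against 1.90, 1.74 and 2.65 FPKM in the control. At 30 min it had 0.495, 0.916 and 1.20 FPKM with GA3, against 4.16, 2.84 and 2.68 FPKM in the control. By 180 min PRE3 had 5.89, 5.26 and 5.84 FPKM with GA3, against 2.95, 2.61 and 3.20 FPKM in the control. The groups did not overlap at any of the 3 times, with GA3 above the control at 5 and 180 min and below it at 30 min. Changes were 1.35 ± 0.23 at 5 min, -1.18 ± 0.23 at 30 min and 0.77 ± 0.23 at 180 min (limma, adjusted p = 7.92e-06, 0.000105 and 0.00694). Against the other 3 hormones PRE3 with GA3 was higher by 1.50 ± 0.19 at 5 min and by 1.36 ± 0.19 at 180 min (limma, adjusted p = 1.64e-08 and 2.56e-07). At 30 min the difference from the mean of ZT and eBL was -0.48 ± 0.20 (limma, adjusted p = 0.0913). The rise at 180 min did not pass with a pseudocount of 0.1 FPKM (limma, adjusted p = 0.0781).

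PRE3 fell with ZT at 180 min, with 1.22, 0.124 and 0.787 FPKM against 2.95, 2.61 and 3.20 FPKM in the control. The change was -1.25 ± 0.23 (limma, adjusted p = 2.51e-05), and -1.25 ± 0.20 against the mean of eBL and GA3 (limma, adjusted p = 2.05e-06). With eBL it fell by 1.08 on the log2 scale at 30 min (by 0.91 without replicate 3 of eBL) and by 0.76 at 180 min (limma, adjusted p = 0.000224, 0.00432 and 0.00844). The 180 min fall did not pass without eBL replicate 1 (limma, adjusted p = 0.0937), nor the 30 min fall in a fit of the compared groups alone (limma, adjusted p = 0.0979).

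PRE2 was highest with ZT at 30 min, with 4.74, 4.38 and 4.43 FPKM, against 2.78, 3.21 and 2.35 FPKM in the control. The libraries did not overlap, and the difference from the control was 0.55 on the log2 scale, which did not pass. The difference from the other 3 hormones was 1.03 ± 0.19 and passed (limma, adjusted p = 1.90e-05). PRE2 fell with eBL at 30 min by 0.77 on the log2 scale, a call that was lost without replicate 3 of eBL, where the value was -0.56 (limma, adjusted p = 0.0663). Its calls at 180 min, 0.55 with ZT and -0.62 with GA3, were lost under several of the settings tried, with values of 0.42 to 0.50 and -0.56 to -0.35 where leaving out 1 library ended them.

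**Figure D3:**
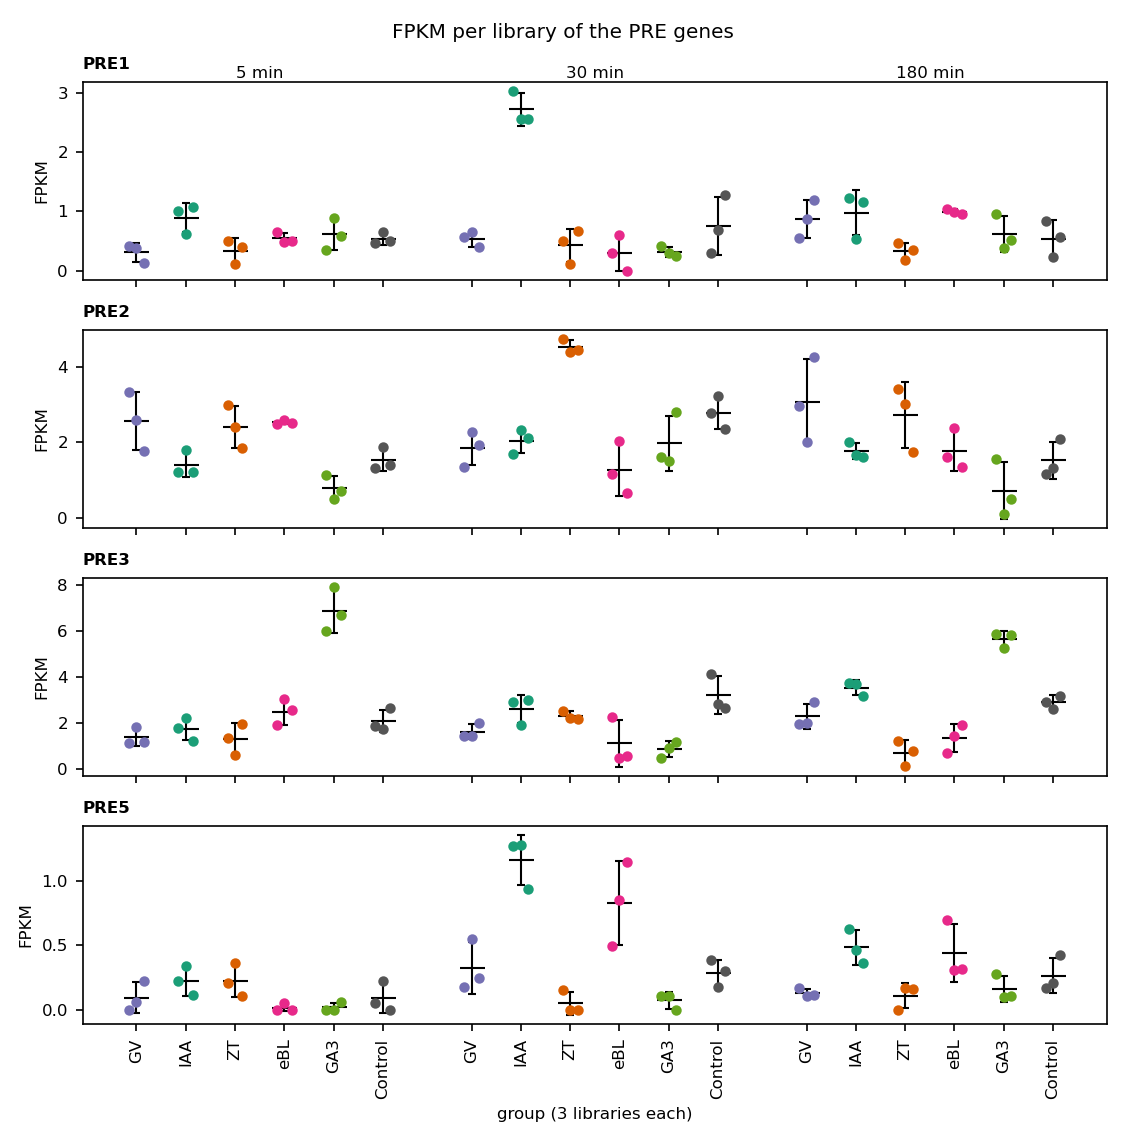
FPKM of PRE1, PRE2, PRE3 and PRE5 in each of 54 libraries (points), with the group mean (long bar) and SD (error bar), by compound and time. PRE1 and PRE5 reach their highest level with IAA at 30 min, and PRE3 with GA3 at 5 min, at a mean of 6.89 FPKM.

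BHLH72 (AT5G61270, chr5:24638491-24640765, minus strand) is PIF7, a phytochrome-interacting factor that drives growth in shade. With ZT at 30 min it had 17.7, 18.0 and 17.7 FPKM, against 10.1, 7.53 and 7.60 FPKM in the control. All ZT libraries were above every other library of that time. The change was 1.01 ± 0.16 (limma, adjusted p = 2.18e-06), and 1.43 ± 0.14 against the mean of eBL and GA3 (limma, adjusted p = 3.54e-11). With eBL at 180 min BHLH72 had 1.28, 1.15 and 1.47 FPKM, against 5.64, 5.44 and 4.74 FPKM in the control. These eBL values were the lowest of all groups, and the change was -1.45 ± 0.16 (limma, adjusted p = 1.16e-09). Against the mean of ZT and GA3 it was -0.97 ± 0.14 (limma, adjusted p = 5.72e-07). GA3 at 180 min gave 3.05, 2.03 and 2.64 FPKM and a change of -0.82 ± 0.16 (limma, adjusted p = 6.09e-05), and differed from the mean of ZT and eBL by -0.03 ± 0.14 (limma, adjusted p = 0.894). BHLH72 overlaps AT5G61260 on the other strand, whose mean was 3.55 FPKM with ZT at 30 min against 1.28 FPKM in the control. Whether counting used the strand is not given in the sources used here, and reads from overlapping genes cannot be told apart.

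BHLH23 and BHLH119 belong to the same subfamily as the PIF genes. BHLH119 with GA3 at 180 min had 1.71, 2.15 and 2.73 FPKM, against 0.128, 0.166 and 0.218 FPKM in the control. The difference in mean log2 value was 1.44, with no test, since BHLH119 reached the limit of 1 FPKM in this group alone. It rose by 0.64 ± 0.14 with eBL and by 0.60 ± 0.14 with IAA at 180 min (limma, adjusted p = 0.000256 and 0.00121), and in no library of these 2 groups did it reach 1 FPKM. BHLH23 fell with GA3 at 30 min by 0.63 and rose with IAA and eBL at 180 min by 0.50 and 0.57 (limma, adjusted p = 0.000400, 0.00724 and 0.00104). Its fall with GA3 did not pass against the mean of ZT and eBL (limma, adjusted p = 0.474).

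TMO5 (BHLH32) and T5L1 (BHLH30) pair with LHW-type partners and set cell divisions in young vascular tissue, partly through cytokinin synthesis. BHLH51 and BHLH106 are of the same subfamily. BHLH51 (AT2G40200, chr2:16791010-16792376, plus strand) rose with ZT at all 3 times. It had 3.14, 2.95 and 3.70 FPKM with ZT at 5 min, against 1.20, 0.758 and 1.14 FPKM in the control. At 30 min it had 5.94, 5.71 and 4.91 FPKM with ZT, against 0.912, 0.493 and 0.863 FPKM in the control. Then, at 180 min, there were 2.64, 2.19 and 2.13 FPKM with ZT, against 0.467, 0.746 and 0.761 FPKM in the control. ZT and control libraries were apart at each time, and no library of the other 15 groups reached the lowest ZT library, 2.13 FPKM. Changes were 1.07 ± 0.15, 1.90 ± 0.15 and 1.00 ± 0.15 at 5, 30 and 180 min (limma, adjusted p = 1.98e-07, 9.57e-14 and 4.97e-07). ZT exceeded the mean of the other 3 hormones by 1.11 ± 0.12 at 5 min (limma, adjusted p = 6.28e-10). ZT exceeded the mean of eBL and GA3 by 2.09 ± 0.13 at 30 min and by 1.16 ± 0.13 at 180 min (limma, adjusted p = 4.17e-17 and 6.77e-10). BHLH51 overlaps AT2G40205 on the minus strand, which had a mean of 0.287 FPKM with ZT at 30 min against 0.518 FPKM in the control.

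The 250 bases before the BHLH51 start, chr2:16790760-16791009 on the plus strand of TAIR10.1, are shown since BHLH51 is the member that rose with cytokinin at every time. The core bound by type-B response regulators, AGATT or its reverse complement AATCT, is in capitals.
BHLH51: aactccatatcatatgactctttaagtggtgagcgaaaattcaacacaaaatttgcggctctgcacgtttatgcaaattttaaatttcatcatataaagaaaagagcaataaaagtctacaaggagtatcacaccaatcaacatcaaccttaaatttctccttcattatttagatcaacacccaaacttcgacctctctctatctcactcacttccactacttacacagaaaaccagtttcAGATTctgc
This window held 1 match, and 63.7% of all promoters held at least 1.

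BHLH32 rose with IAA at 30 min, with 3.70, 4.56 and 4.38 FPKM against 1.83, 1.66 and 1.29 FPKM in the control. The groups were apart, and the change was 1.01 ± 0.15 (limma, adjusted p = 2.97e-06). BHLH30 fell with GV at 5 min, with 2.84, 2.94 and 2.83 FPKM against 4.11, 5.15 and 5.20 FPKM in the control. That change was -0.58 ± 0.10 (limma, adjusted p = 4.57e-05). BHLH30 also fell at 30 min with ZT by 0.39 and with GA3 by 0.44 (limma, adjusted p = 0.00233 and 0.000767).

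BHLH126 had its highest level with ZT at 30 min, like BHLH51. It had 4.08, 3.79 and 4.05 FPKM, against 0.162, 0.263 and 0.178 FPKM in the control, a difference in mean log2 value of 2.05. Against the mean of eBL and GA3 the difference was 1.79. IAA at 30 min gave 1.13, 0.827 and 1.18 FPKM, also above all control libraries, and a difference of 0.76. At 180 min BHLH126 was higher with ZT by 0.66. It reached the limit of 1 FPKM only with ZT and IAA at 30 and 180 min, so these differences are a description with no test. BHLH61, a relative of the cold and stomatal regulator ICE1, had 5.10, 8.46 and 6.51 FPKM with ZT at 30 min, against 4.50, 3.54 and 2.88 FPKM in the control. At 180 min it had 8.15, 5.89 and 6.60 FPKM with ZT, against 3.20, 3.47 and 2.51 FPKM in the control. The changes were 0.72 ± 0.17 and 0.95 ± 0.17 (limma, adjusted p = 0.000683 and 1.14e-05).

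BHLH61 rose with IAA at 5 min, with 4.18, 2.51 and 4.11 FPKM against 1.95, 1.59 and 1.65 FPKM in the control (limma, log2 change 0.73, adjusted p = 0.00199). It fell with eBL at 30 min, with GA3 at 30 and 180 min and with IAA at 180 min. With eBL at 30 min it had 1.16, 1.03 and 1.91 FPKM, a change of -0.98 ± 0.17 (limma, adjusted p = 9.07e-06), and -1.14 without replicate 3 of eBL (limma, adjusted p = 2.16e-06). The fall with GA3 at 30 min, of 0.49, was lost without control replicate 1, where the change was -0.36 (limma, adjusted p = 0.152). At 180 min the changes were -0.83 ± 0.17 with GA3 and -0.70 ± 0.17 with IAA (limma, adjusted p = 0.000107 and 0.00185), and 0.03 with eBL, which did not pass. ZT exceeded the mean of eBL and GA3 by 1.45 ± 0.15 at 30 min and by 1.35 ± 0.15 at 180 min (limma, adjusted p = 8.08e-11 and 3.63e-10).

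**Figure D4:**
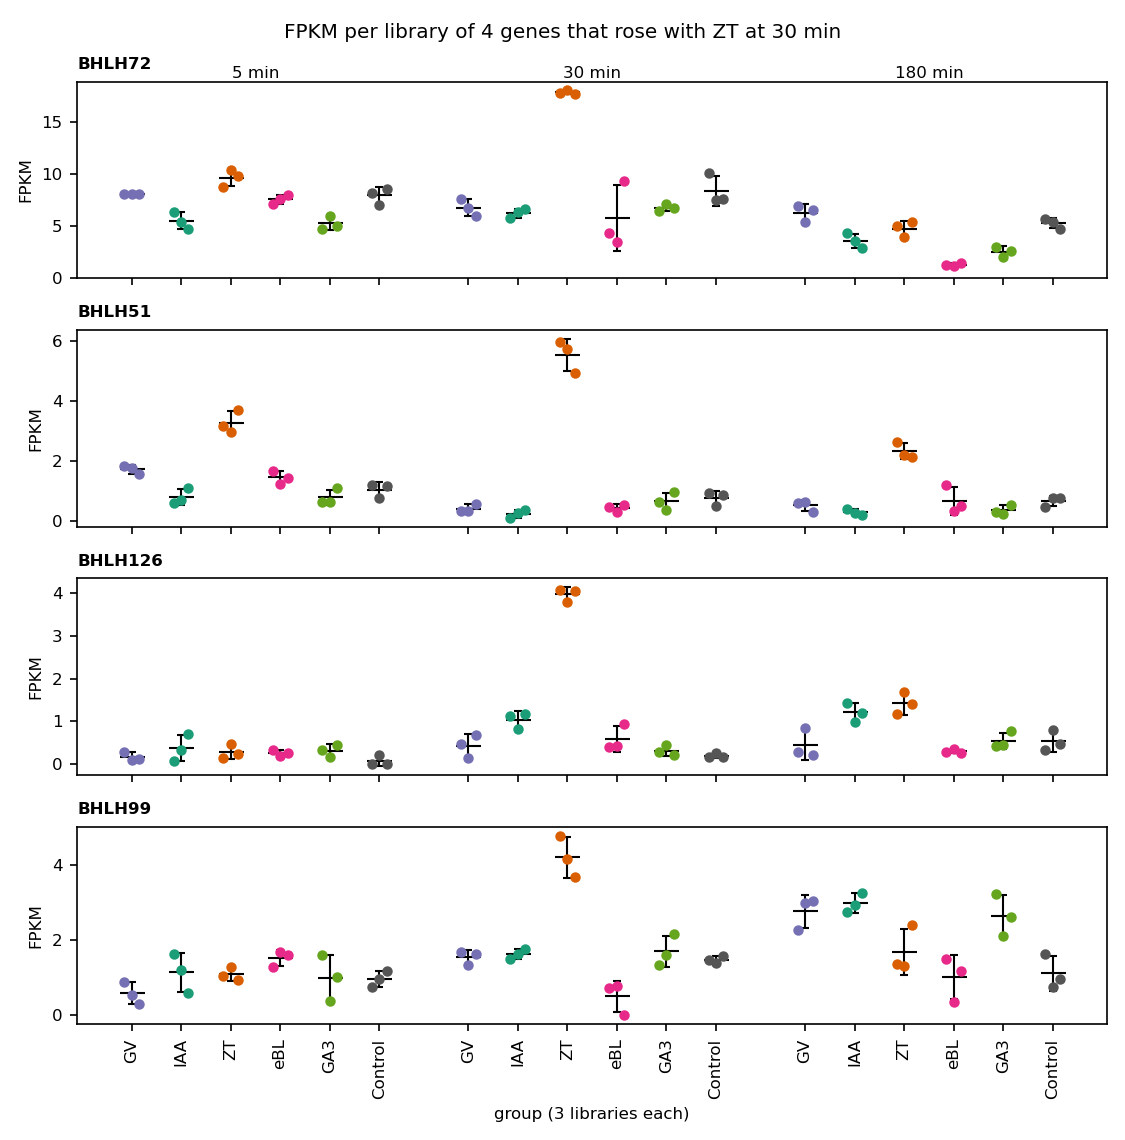
FPKM of BHLH72, BHLH51, BHLH126 and BHLH99 in each of 54 libraries (points), with group means (long bars) and SD (error bars), by compound and time. All 3 ZT libraries at 30 min lie above every other library of that time in each of the 4 genes.

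Among iron regulators, BHLH100 (AT2G41240, chr2:17198037-17199454, minus strand) belongs to the Ib group that acts with FIT to switch on iron uptake. It fell with all 5 compounds at 5 min. Levels were 0.222, 0.278 and 0.223 FPKM with GV, and 0.350, 0.225 and 0.306 FPKM with IAA. They were 0.0826, 0.286 and 0.507 FPKM with ZT, 0.952, 0.838 and 1.25 FPKM with eBL, and 0.171, 0.0874 and 0.146 FPKM with GA3, against 2.37, 1.79 and 1.73 FPKM in the control. All 15 libraries with a compound lay below the control libraries. Changes lay between -1.38 with GA3 and -0.56 with eBL, each ± 0.12 (limma, adjusted p between 1.15e-12 and 0.00393). The call with eBL was lost without control replicate 1, where the change was -0.46 (limma, adjusted p = 0.0635). The control itself was lower at 30 min, with 0.129, 0.0465 and 0 FPKM, by 1.48 on the log2 scale (limma, adjusted p = 3.93e-13). The 5 falls share those 3 control libraries. Seed markers were also lower with the compounds at 5 min and in the control at 30 min, but not in every group where BHLH100 was low. Their summed level at 5 min was 4.46 to 5.99 FPKM with GV, 0.576 to 1.63 FPKM with IAA, 2.55 to 3.91 FPKM with ZT, 8.02 to 10.4 FPKM with eBL and 7.58 to 9.37 FPKM with GA3, against 18.7 to 20.5 FPKM in the control. Of the 3 markers, 2, 3, 3, 1 and 2 fell with these compounds, 1 rose with GA3, and none was at 0. In the control at 30 min the sum was 6.95 to 7.71 FPKM. At 180 min BHLH100 was low in the control and with IAA, at means of 0.412 and 0.171 FPKM. The seed marker sums there were 22.5 to 24.6 and 23.3 to 28.3 FPKM. The part of seed markers in the result was not tested.

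At later times BHLH100 was high with ZT. It had 2.29, 3.24 and 3.10 FPKM at 30 min, against 0.129, 0.0465 and 0 FPKM in the control. At 180 min it had 4.02, 3.68 and 4.05 FPKM, against 0.617, 0.286 and 0.333 FPKM in the control. Neither pair of groups overlapped, and the changes were 1.87 ± 0.12 and 1.81 ± 0.12 (limma, adjusted p = 3.34e-16 and 3.93e-16). Against the mean of eBL and GA3, ZT was higher by 1.27 ± 0.10 and 1.78 ± 0.10 (limma, adjusted p = 3.30e-13 and 8.15e-18). GA3 at 30 min gave 1.57, 1.37 and 1.37 FPKM and a change of 1.20 ± 0.12 (limma, adjusted p = 1.48e-10), but its difference from the mean of ZT and eBL did not pass (limma, adjusted p = 0.0606). Seed markers with ZT summed to 12.3 to 13.3 FPKM at 30 min, against 6.95 to 7.71 FPKM in the control, and to 0.354 to 0.894 FPKM at 180 min, against 22.5 to 24.6 FPKM in the control.

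BHLH25 belongs to the IVa group, whose members bind FIT and promote its breakdown under jasmonate. With ZT at 30 min it had 1.72, 1.57 and 1.49 FPKM, against 0.0362, 0.0783 and 0 FPKM in the control. The difference in mean log2 value was 1.32, beside 0.95 with GA3 at 30 min and 0.67 with GV at 5 min. BHLH25 reached the limit of 1 FPKM in these groups alone, so these differences are given with no test. With ZT at 180 min BHLH25 rose by 0.73 (limma, adjusted p = 3.48e-05). BHLH34, which activates the Ib genes when iron is short, fell with all of ZT, eBL and GA3 at 30 min. Its levels there were 2.04, 1.84 and 1.49 FPKM with ZT, 1.46, 1.49 and 1.91 FPKM with eBL and 1.88, 1.60 and 2.48 FPKM with GA3, against 3.21, 2.78 and 3.76 FPKM in the control. Changes were -0.61, -0.69 and -0.51, each ± 0.13 (limma, adjusted p = 0.000154, 1.95e-05 and 0.00155), and with eBL -0.77 without its replicate 3. None of the differences of BHLH34 among the 3 compounds passed at that time (limma, adjusted p between 0.331 and 0.990). BHLH47 (POPEYE, a repressor in the iron response) had 6.18, 6.45 and 6.61 FPKM with GV at 30 min, against 10.9, 10.3 and 9.54 FPKM in the control, its highest level. That fall of 0.60 on the log2 scale (limma, adjusted p = 0.00996) was lost without control replicate 1, where the change was -0.56 (limma, adjusted p = 0.0560). BHLH47 also fell against the same control libraries with IAA by 0.62, with ZT by 0.39 and with GA3 by 0.41 (limma, adjusted p = 0.00459, 0.0368 and 0.0359). The fall with IAA was lost without IAA replicate 1, where it was -0.41, and the falls with ZT and GA3 without control replicate 1, where they were -0.35 and -0.37 (limma, adjusted p = 0.113, 0.109 and 0.112). The control itself was higher at 30 min than at 5 min by 0.54 (limma, adjusted p = 0.00547).

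Of 4 root hair regulators tested, BHLH82, BHLH83 and BHLH85 rose with GA3 at 180 min and BHLH54 did not pass. BHLH82 (LRL3, AT5G58010, chr5:23483366-23485014, minus strand), which acts in root hair growth, had 3.62, 3.45 and 4.30 FPKM with GA3, 3.34, 2.95 and 2.71 FPKM with eBL, and 0.771, 0.963 and 1.06 FPKM in the control. Both compounds were above all control libraries, by 1.31 ± 0.19 with GA3 and by 1.05 ± 0.19 with eBL (limma, adjusted p = 2.98e-07 and 1.75e-05). GA3 exceeded the mean of ZT and eBL by 0.81 ± 0.16 (limma, adjusted p = 0.000122). BHLH82 fell at 5 min with ZT, to 0.939, 0.358 and 0.997 FPKM, against 2.11, 2.26 and 2.35 FPKM in the control, and with GV, to 1.09, 1.05 and 0.625 FPKM. Those changes were -0.90 ± 0.19 and -0.76 ± 0.19 (limma, adjusted p = 0.000211 and 0.00391). With ZT at 30 min BHLH82 rose by 0.79 ± 0.19 (limma, adjusted p = 0.000777).

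BHLH83 (RHD6), BHLH85 (RSL2) and BHLH54 (RSL4), chosen for description after their values had been seen, also serve root hair outgrowth. BHLH83 had 2.09, 1.63 and 1.54 FPKM with GA3 at 5 min, against 0.490, 0.355 and 0.591 FPKM in the control, and rose by 0.89 ± 0.17 (limma, adjusted p = 2.91e-05). BHLH85 had 1.11, 0.810 and 0.826 FPKM with GA3 at 180 min, against 0.185, 0.0342 and 0.105 FPKM in the control, and rose by 0.79 ± 0.22 (limma, adjusted p = 0.00376). With eBL at 30 min BHLH85 had 0.548, 0.262 and 3.44 FPKM, so its mean there rests on replicate 3. BHLH54 fell with GA3 at 30 min, with 1.36, 1.04 and 0.958 FPKM against 2.49, 2.25 and 1.96 FPKM in the control (limma, log2 change -0.61, adjusted p = 0.0114).

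Root markers moved with these genes in some comparisons and not in others. All 5 rose with GA3 at 180 min and 4 of 5 with eBL at 180 min, among them the root hair genes EXPA7 (1.47 with GA3, 1.07 with eBL), PRP3 (1.57 and 0.86) and COBL9 (0.59 and 0.38). The summed level of the 5 markers, most of it from BGLU23, was 2080 to 2379 FPKM with GA3 and 1347 to 1349 FPKM with eBL, against 1442 to 1445 FPKM in the control at 180 min. At 5 min, where 4 of the 5 rose and 1 fell with GA3, it was 2030 to 2059 FPKM with GA3, against 816 to 856 FPKM in the control. With ZT at 5 min, where BHLH82 fell, 3 of the 5 fell and 0 rose by limma's adjusted p and by its unadjusted p under 0.05, with a median change of -0.93. With GV at 5 min 1 fell and 0 rose. The sums were 910 to 928 FPKM with ZT and 849 to 938 FPKM with GV, against 816 to 856 FPKM in the control. With ZT at 30 min, where BHLH82 rose, 2 root markers rose and 2 fell (3 and 2 at an unadjusted limma p under 0.05). With GA3 at 30 min, where BHLH54 fell, 1 rose and 0 fell (2 and 1 at an unadjusted limma p under 0.05). No root marker was at 0 in any of these groups. Their part in the results for root hair genes was not tested.

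**Figure D5:**
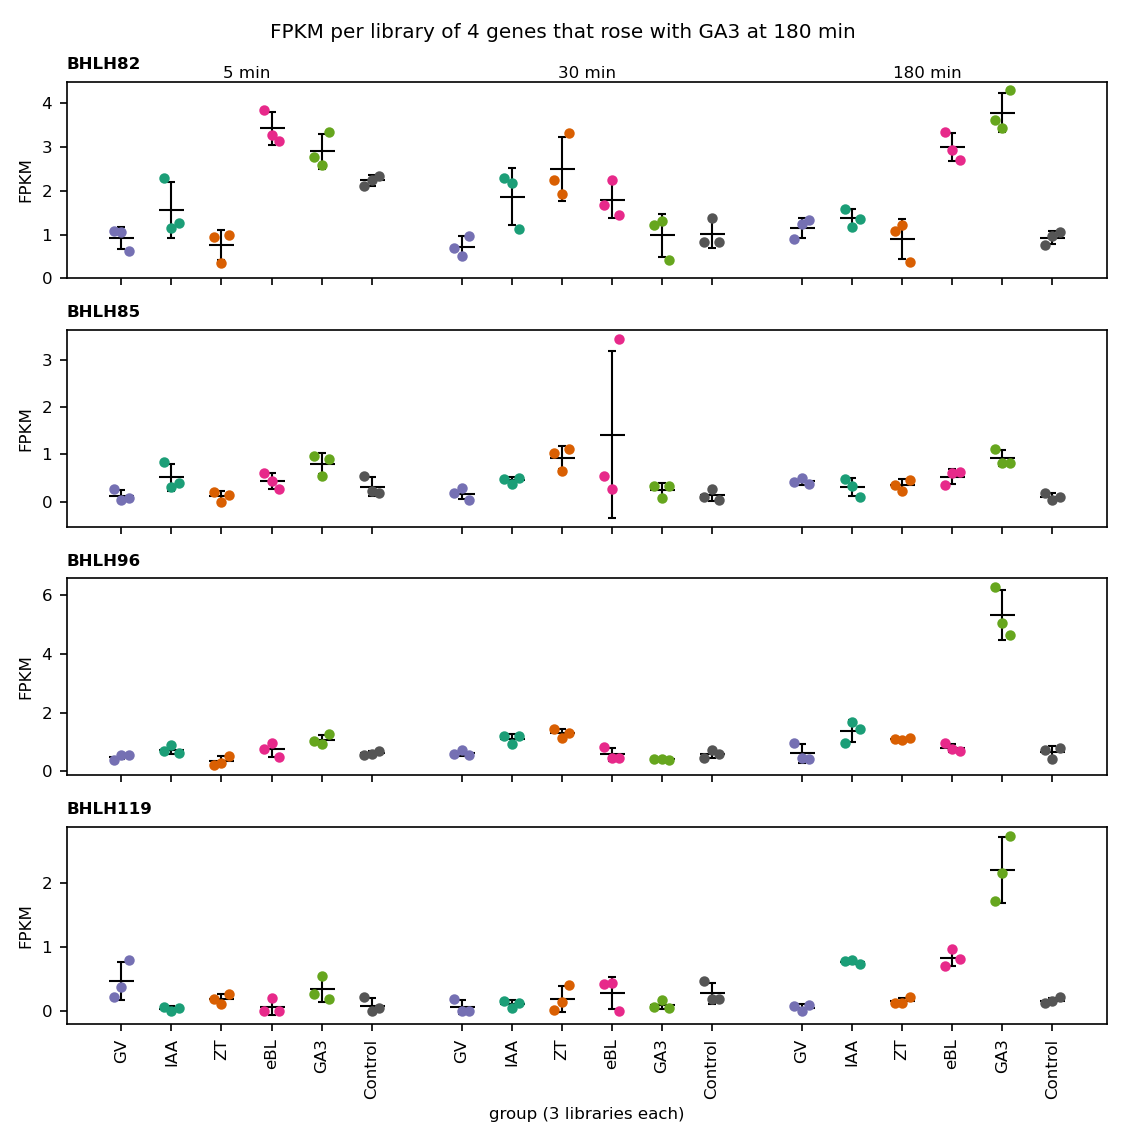
FPKM of BHLH82, BHLH85, BHLH96 and BHLH119 in each of 54 libraries (points), with group means (long bars) and SD (error bars), by compound and time. All 3 GA3 libraries at 180 min lie above the control libraries of that time in each gene, and BHLH96 reaches a mean of 5.32 FPKM there.

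BHLH57, BHLH67, BHLH70, BHLH71, BHLH96 and BHLH99 belong to the Ia subfamily, as do the stomatal regulators SPEECHLESS, MUTE and FAMA, and were grouped here after their values had been seen. BHLH71 (AT5G46690, chr5:18945543-18947637, plus strand), a known partner of FAMA, gave the steepest fall of any member. With ZT at 180 min it had 0.223, 0.570 and 0.555 FPKM, against 5.34, 4.44 and 5.64 FPKM in the control. The change was -2.09 ± 0.15 (limma, adjusted p = 7.40e-15), and -0.85 ± 0.13 against the mean of eBL and GA3 (limma, adjusted p = 1.31e-06). At 180 min it was also lower with GA3, at 1.29, 1.13 and 0.892 FPKM, with eBL, at 2.04, 2.01 and 2.61 FPKM, and with IAA, at 2.39, 2.08 and 2.87 FPKM. Those changes were -1.54, -0.93 and -0.83, each ± 0.15 (limma, adjusted p = 4.89e-11, 4.71e-06 and 5.75e-05). Among ZT, eBL and GA3 at that time, eBL was above the mean of the other 2 by 0.89 ± 0.13 (limma, adjusted p = 1.41e-06). At 30 min BHLH71 fell by 1.43 with ZT and by 1.35 with GA3 on the log2 scale (limma, adjusted p = 4.11e-10 and 3.73e-09). At 5 min it rose with IAA, with 4.47, 5.45 and 4.56 FPKM against 1.57, 2.48 and 1.84 FPKM in the control (limma, log2 change 0.98 ± 0.15, adjusted p = 7.12e-06).

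BHLH57 and BHLH67 also fell at 180 min. BHLH57 had 5.19, 3.29 and 4.37 FPKM with GA3, 5.67, 5.93 and 5.70 FPKM with ZT and 5.57, 5.41 and 6.79 FPKM with eBL, against 10.3, 11.6 and 12.3 FPKM in the control. Changes were -1.24, -0.87 and -0.84, each ± 0.12 (limma, adjusted p = 1.69e-11, 8.49e-08 and 2.34e-07). GA3 differed from the mean of ZT and eBL by -0.39 ± 0.10 (limma, adjusted p = 0.00341), while ZT and eBL did not pass that comparison. BHLH67 fell by 0.89 with GA3, 0.69 with ZT, 0.68 with eBL and 0.51 with IAA (limma, adjusted p = 2.59e-06, 0.000127, 0.000173 and 0.00749). None of the differences of BHLH67 among ZT, eBL and GA3 passed (limma, adjusted p between 0.233 and 0.611).

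Green tissue markers moved with BHLH71, BHLH57 and BHLH67 in some comparisons and not in others. At 180 min, 3 of 4 fell in ZT and 3 in IAA libraries, as did 2 in eBL and 2 in GA3 libraries. None of the 4 rose with these compounds, by limma's adjusted p or by its unadjusted p under 0.05 (0 in each). Their median changes were -0.59, -0.66, -0.33 and -0.26. Under quantile normalization 2 fell with ZT, 0 with IAA, 2 with eBL and 2 with GA3. The summed level was 9037 to 10122 FPKM with ZT, 8858 to 9574 FPKM with IAA, 11580 to 12530 FPKM with eBL and 11439 to 13094 FPKM with GA3, against 13955 to 14996 FPKM in the control. At 5 min with IAA, where BHLH71 rose, 2 of the 4 rose, and the sum was 18275 to 19728 FPKM with IAA, against 16432 to 16720 FPKM in the control. In the control between 30 and 180 min 0 green markers rose and 2 fell, while the BHLH57 mean was 7.49 FPKM at 30 min and 11.4 FPKM at 180 min. With ZT at 5 min 0 rose and 2 fell, while the BHLH57 mean was 4.53 FPKM, against 3.99 FPKM in the control. No green marker was at 0, and their part in these results was not tested.

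BHLH96 (AT1G72210, chr1:27179458-27182456, plus strand) rose in all 6 comparisons where it passed, and BHLH99 rose in 4 of 5. BHLH96 had 6.27, 5.06 and 4.64 FPKM with GA3 at 180 min, against 0.725, 0.421 and 0.802 FPKM in the control. The change was 1.94 ± 0.13 (limma, adjusted p = 2.62e-16), and 1.70 ± 0.11 against the mean of ZT and eBL (limma, adjusted p = 2.70e-16). No other group mean of BHLH96 was above 1.37 FPKM. BHLH99 had 4.79, 4.16 and 3.67 FPKM with ZT at 30 min, against 1.48, 1.38 and 1.57 FPKM in the control, and rose by 1.07 ± 0.21 (limma, adjusted p = 7.24e-05). ZT exceeded the mean of eBL and GA3 by 1.40 ± 0.18 (limma, adjusted p = 4.64e-08). At 180 min BHLH99 rose with IAA by 0.94 ± 0.21 and with GA3 by 0.80 ± 0.21 (limma, adjusted p = 0.000840 and 0.00201). It fell with eBL at 30 min by 0.78, a call lost without replicate 3 of eBL, at -0.51 (limma, adjusted p = 0.0593). BHLH70 fell in 2 comparisons and rose in 0, with its lowest change, -0.41, with GA3 at 5 min.

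BHLH76 (CIB5, of the group of cryptochrome-interacting factors that promote flowering) moved in opposite directions with auxin and with ZT and eBL at 180 min. It had 11.2, 9.58 and 8.90 FPKM with IAA, against 7.48, 6.43 and 5.89 FPKM in the control. It had 2.51, 2.72 and 2.28 FPKM with ZT and 3.05, 3.43 and 2.59 FPKM with eBL. The changes were 0.52, -1.11 and -0.92, each ± 0.12 (limma, adjusted p = 0.00100, 2.31e-10 and 3.71e-08). ZT was below the mean of eBL and GA3, by -0.53 ± 0.10 (limma, adjusted p = 4.49e-05), and eBL did not pass against that of ZT and GA3 (limma, adjusted p = 0.0955). The control itself was higher at 180 min than at 30 min by 1.12 ± 0.12 (limma, adjusted p = 9.31e-10). BHLH109 showed the same order at 180 min, with 7.33, 7.12 and 6.96 FPKM with IAA, 0.838, 0.353 and 0.491 FPKM with ZT, and 2.34, 2.21 and 3.98 FPKM in the control. IAA was above and ZT below every control library, by 1.11 ± 0.24 and by -1.28 ± 0.24 (limma, adjusted p = 0.000601 and 3.25e-05). BHLH76 and BHLH109 also fell with GV at 180 min, by 0.47 and 0.99. Those calls were lost without control replicate 1 and control replicate 3, at -0.39 and -0.79 (limma, adjusted p = 0.0654 and 0.0651).

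BHLH122 (FBH3, an activator of CONSTANS, which times flowering) rose with GA3 at 5 min, with 6.70, 5.55 and 6.70 FPKM against 2.65, 2.69 and 2.30 FPKM in the control. At 180 min it had 8.76, 7.53 and 8.65 FPKM with GA3, against 3.52, 3.48 and 4.01 FPKM in the control. The groups were apart at both times, with changes of 1.04 ± 0.13 and 0.99 ± 0.13 (limma, adjusted p = 1.64e-08 and 5.21e-08). BHLH117 was higher with GA3 at 5 min by 1.32, with ZT at 5 min by 0.97 and with IAA at 180 min by 1.22. It reached the limit of 1 FPKM only in groups where it was high, these among them, so these differences are given with no test. Its control level at 5 min was 0.120, 0.0608 and 0.127 FPKM, a few reads per library. BHLH109 rose with GA3 at 5 min by 1.25 ± 0.24 (limma, adjusted p = 5.42e-05). BHLH112, a regulator of salt and drought tolerance, fell with GA3 at 5 min, with 3.62, 4.67 and 5.01 FPKM against 7.38, 7.42 and 6.86 FPKM in the control (limma, log2 change -0.60, adjusted p = 0.00309).

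BHLH162 was the member with the largest rise at 5 min. It had 3.10, 3.77 and 2.29 FPKM with ZT, against 0.106, 0.0538 and 0.112 FPKM in the control, a difference in mean log2 value of 1.88. ZT exceeded the other 3 hormones by 1.72. With eBL at 30 min it had 1.07, 1.15 and 2.66 FPKM, against 0, 0.115 and 0.0581 FPKM in the control. That difference was 1.26, and 1.00 without replicate 3 of eBL. BHLH162 reached the limit of 1 FPKM only with ZT at 5 min and eBL at 30 min, so these differences are a description with no test.

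BHLH87 was the only member that rose with all 5 compounds at 180 min. Its levels were 3.62, 4.67 and 5.01 FPKM with GV, 6.06, 6.38 and 6.12 FPKM with IAA, 6.03, 6.25 and 6.06 FPKM with ZT, 4.002, 3.62 and 3.32 FPKM with eBL and 5.54, 6.67 and 6.06 FPKM with GA3, against 2.42, 2.76 and 3.29 FPKM in the control. The changes were 0.50, 0.92, 0.90, 0.29 and 0.89, each ± 0.11 (limma, adjusted p = 0.00136, 1.36e-08, 6.82e-09, 0.0361 and 1.01e-08). The call with eBL was lost without control replicate 1, where the change was 0.21 (limma, adjusted p = 0.192). The shared control was lower at 180 min than at 30 min by 1.24 on the log2 scale (limma, adjusted p = 8.26e-12). At 5 min BHLH87 rose with ZT, with 14.9, 13.3 and 13.9 FPKM against 9.24, 8.14 and 9.32 FPKM in the control (limma, log2 change 0.60, adjusted p = 2.84e-05).

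BHLH144 (SACL3, of the group whose translation responds to thermospermine) was the most abundant member over the 54 libraries. With ZT at 30 min it had 6.70, 7.40 and 6.13 FPKM, against 10.1, 10.7 and 11.1 FPKM in the control, a change of -0.59 ± 0.13 (limma, adjusted p = 0.000370). Falls at 180 min were found with GA3, eBL and ZT, of 0.57, 0.48 and 0.46 (limma, adjusted p = 0.000533, 0.00360 and 0.00398). BHLH125 fell at 180 min with ZT by 1.04 and with eBL by 0.79, and rose with IAA at 5 min by 0.75 (limma, adjusted p = 1.67e-05, 0.000838 and 0.00488). BHLH78 rose at 180 min with GA3 by 0.79 and with eBL by 0.51 (limma, adjusted p = 6.98e-05 and 0.00917).

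Without any compound, 16 members were higher and 3 lower in the control at 30 min than at 5 min, against 17.3% and 14.1% of all genes. At 180 min 7 were higher and 5 lower than at 30 min, against 13.4% and 9.08% of all genes. BHLH122 and BHLH71 were among those higher at 30 min, by 0.82 and 0.78 (limma, adjusted p = 4.19e-06 and 0.000107).

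Of 25 genes listed for light and PIF signalling, 10 were tested. With GA3, 4 rose and 0 fell at 5 min, 0 rose and 6 fell at 30 min, and 5 rose and 1 fell at 180 min, beside shares of all genes of 23.7% and 11%, 14.4% and 16.8%, and 17.3% and 23.6%. At an unadjusted limma p under 0.05 the counts were 5 and 0, 0 and 7, and 6 and 1. Under quantile normalization 3 rose and 1 fell with GA3 at 5 min. With IAA 4 rose and 0 fell at both 30 and 180 min (limma, with 4 and 6 up and 0 down at an unadjusted p under 0.05), beside 7.16% and 2.66%, and 11.2% and 6.48%, of all genes. With GA3 at 30 min PORA (chlorophyll synthesis) had means of 1.39 FPKM with GA3 and 5.09 FPKM in the control, a change of -1.35, RGL2 (a DELLA repressor of gibberellin signalling) a change of -0.97, and PAR2 (an inhibitor of shade growth) a change of -1.30 (limma, adjusted p = 8.53e-13, 8.96e-08 and 1.02e-07). With ZT at 30 min 2 rose and 4 fell, beside 19.1% and 19.5% of all genes. With eBL at 180 min 3 rose and 5 fell, beside 16.2% and 21.8% of all genes. There RGL2 changed by -1.28 and PORA by -1.05 (limma, adjusted p = 6.46e-11 and 5.52e-10). With ZT at 180 min 1 rose and 3 fell, beside 17.1% and 24.7% of all genes, and PORA changed by -2.44 (limma, adjusted p = 2.38e-21).

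Of 26 genes listed for iron deficiency, 8 were tested. With GA3 at 5 min 5 rose and 1 fell, beside 23.7% and 11% of all genes. The risers included F6H1 (coumarin synthesis) by 1.96, NAS2 and NAS4 (nicotianamine synthesis) by 1.20 and 1.47, and FIT by 1.32 (limma, adjusted p = 1.79e-16, 4.96e-14, 3.18e-08 and 9.06e-06). Of the 5 root markers 4 rose and 1 fell there, and their part in these rises was not tested. BHLH100 fell in that comparison. With ZT at 30 min 3 rose and 2 fell, beside 19.1% and 19.5% of all genes, and the median change of the 8 was -0.17. Only the risers are described, so the list as a whole did not go 1 way. The risers were BTSL2 and BTSL1 (ligases that limit the iron response) and ZIF1 (a vacuolar transporter), by 0.79, 0.53 and 0.93 (limma, adjusted p = 2.63e-08, 0.000201 and 4.22e-08). With eBL at 30 min, a comparison that contains the outlying library, 5 rose and 2 fell, beside 23.1% and 20.6% of all genes.

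Of 13 genes listed for brassinosteroid and helix-loop-helix growth control, 2 were tested. BKI1, an inhibitor of the brassinosteroid receptor, fell with eBL by 0.63 at 30 min and by 0.85 at 180 min (limma, adjusted p = 3.09e-06 and 8.20e-09). IBH1, a bHLH protein that PRE1 neutralises, differed by -0.28 and -0.25 at these times, and neither passed (limma, adjusted p = 0.245 and 0.327). Falls in this list were not limited to eBL. With ZT at 30 min 2 of the 2 fell, beside 19.5% of all genes, with a median change of -0.78 (-0.45 with eBL). At 180 min 1 fell with each of ZT, eBL and GA3, beside 24.7%, 21.8% and 23.6% of all genes. With GA3 at 30 min 1 rose and 0 fell, beside 14.4% and 16.8% of all genes.

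Sequence matches were counted in the 250 bases upstream of the 48 members and of all 27443 promoters. AGATT was found in 60.4% of members and 63.7% of all promoters, TGTC in 79.2% and 74.8%, and CANNTG (the E-box, with both strands searched for each motif) in 58.3% and 55.3%. CACGTG (the G-box, which is also an E-box) was found in 5 members, 10.4% against 6.49% of all promoters. TGTCTC, which contains TGTC, and CGTGTG were each found in 4 members, 8.33%, against 10.9% and 5.37% of all promoters.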

How the data were processed

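RNA from whole seedlings was read as 54 libraries in 18 groups of 3. The authors deposited 1 table of FPKM values with a column per library, and per the submitters' processing notes the tools and build were Bowtie2 2.2.3 and TAIR10. Which program counted reads, and whether by strand, is not given in the sources used here. The unit was read from the values, since each value times the gene length was a whole number of read steps (100% within 0.05 reads). Damaged lines (3 of 24000) were left out, and columns of other samples numbered 0.

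Genes were tested at a group mean of 1 FPKM or more with limma 3.58.1 in R 4.3.3 (trend, robust) on log2(FPKM + 1), 1 mean per group and 36 residual degrees of freedom. The planned design named this test for FPKM. Reported calls are those with an adjusted p under 0.05. Described members are, per comparison with the control, the 3 largest rises and 3 largest falls among called members with at least 2 FPKM in the higher group and no overlap of values, plus the measured PRE genes and iron regulators (32 in all); not all their calls are given. The members and lists were chosen with earlier results of these data known. Promoters are the 250 bases upstream in TAIR10.1, whose coordinates equal those of the table for all 75 members.

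The steps were tested on simulated data for ZT against control at 30 min (8339 genes): the share called was 36% at a 1.5-fold rise, 92% at 2-fold, 100% at 4-fold and 0.0737% among unchanged genes. Alternatives were a pseudocount of 0.1 FPKM, no filter, quantile normalization, the compared groups alone, a replicate block, and leaving out each library.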

Additional observations from a re-analysis of the deposited data

Results flagged for a closer look

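A difference in effect between times was tested by an interaction term (limma, adjusted over 10622 genes), and the members below had calls in opposite directions at neighbouring times together with a called difference. Values are the later effect minus the earlier one on the log2 scale.

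BHLH100 fell at 5 min and rose at 30 min with both ZT, a difference of 3.07, and GA3, a difference of 2.58. PRE3 with GA3 differed by -2.53 between 30 and 5 min and by 1.95 between 180 and 30 min. BHLH82 with ZT differed by 1.69 between 30 and 5 min, where it had fallen first and then risen. BHLH87 with ZT differed by -0.90 between 30 and 5 min and by 1.20 between 180 and 30 min. Its fall at 30 min was lost without control replicate 2, ZT replicate 1 or ZT replicate 3, with changes of -0.26 to -0.22 (limma, adjusted p between 0.0988 and 0.157). The calls of BHLH100 and BHLH82 given here were lost under none of the settings tried, and of those of PRE3 the rise at 180 min was lost with a pseudocount of 0.1 FPKM.

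BHLH144 differed by -0.98 with ZT and by -0.73 with GA3 between 30 and 5 min. Its rises at 5 min were lost under quantile normalization, at 0.26 with ZT and 0.31 with GA3 (limma, adjusted p = 0.145 and 0.0685). Leaving out any of several single libraries also ended them, at 0.35 to 0.39 with ZT and 0.38 with GA3, and ended the fall with GA3 at 30 min, at -0.38 to -0.30 (limma, adjusted p between 0.0510 and 0.134). BHLH122 differed by -0.89 with ZT between 30 and 5 min and by 0.88 with eBL between 180 and 30 min. Its fall with ZT at 30 min was lost without 1 of several libraries, at -0.34 to -0.26, and under quantile normalization, at -0.30 (limma, adjusted p between 0.0655 and 0.168). Its rise with eBL at 180 min was lost without eBL replicate 1, at 0.30 (limma, adjusted p = 0.106), and its fall with eBL at 30 min in a fit of the compared groups alone (limma, adjusted p = 0.0962). BHLH34 with GA3 differed by -0.87 between 30 and 5 min. Its rise at 5 min was 0.17 under quantile normalization, 0.25 without control replicate 2 and 0.28 without GA3 replicate 1, and passed in none of these (limma, adjusted p = 0.341, 0.180 and 0.137).

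With eBL between 180 and 30 min, BHLH23 differed by 1.24 and BHLH109 by -1.44. The fall of BHLH23 at 30 min did not pass in a fit of the compared groups alone (limma, adjusted p = 0.120). The eBL effect on BHLH109 at 30 min was 0.78 with all libraries and 0.30 without replicate 3, where it did not pass (limma, adjusted p = 0.282). Its fall at 180 min was lost without control replicate 3, eBL replicate 1 or eBL replicate 2, at -0.63 to -0.46 (limma, adjusted p between 0.0753 and 0.188).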

How the results depend on the processing

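The number of members called moved by more than 1.5 times as follows, against the value with all settings as reported. Without a filter on low values it was 6 against 12 for the control between 180 and 30 min, 1 against 2 for eBL at 5 min, 10 against 17 for GA3 at 30 min, and 0 against 1 for GV at 30 min (limma, with 10 members at an unadjusted p under 0.05 in the reported fit). It was also 5 against 8 for GV at 5 min and 7 against 12 for ZT at 5 min, and 11 against 18 for both IAA and ZT at 5 min set against the other hormones. Fitting the compared groups alone, eBL at 30 min had 3 against 23 and GV at 180 min 7 against 4. With a pseudocount of 0.1 FPKM, eBL at 5 min had 0 against 2 (limma, with 6 members at an unadjusted p under 0.05) and GV at 30 min 4 against 1. Quantile normalization gave 3 against 1 for GV at 30 min. Without the outlying eBL library at 30 min, GV had 9 against 4 at 180 min and 3 against 1 at 30 min. The cause was not tested.

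Leaving out 1 library gave 1 to 2 for eBL at 5 min, 11 to 19 for GA3 at 5 min (11 without GA3 replicate 1), 1 to 2 for GV at 30 min, 5 to 9 for IAA at 30 min and 11 to 17 for IAA at 5 min against the other hormones (11 without IAA replicate 2).

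Of 173 calls of the described members, none reversed. Leaving out 1 library ended 56 of them, no filter 39, the compared groups alone 33, quantile normalization 14 and the smaller pseudocount 12, and 65 were ended by at least 1 setting.

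Replicate numbers showed no general pairing of the samples. Deviations of libraries with the same number correlated at a median of 0.000721, and those with other numbers at 0.000408. Correlations over 0.1 occurred in 8 of 459 pairs with the same number and in 6 of 918 with other numbers, with highest values of 0.201 and 0.146. A median cannot show whether single groups were paired. A fit with the replicate number as a block moved no count by over 1.5 times and gave, for example, 23 members for ZT at 30 min against 22. It ended 1 call, BHLH119 with GV at 5 min (limma, adjusted p = 0.0526).

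Detection on simulated data was not split by expression level, so the size of change that this depth can show for low members was not measured.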
